A study of Mus musculus with 6 samples.

Results

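The TSA + GW3965 + LPS array was set against the GW3965 + LPS array, 2 of the 6 arrays of the series, over all 8841 genes named on the platform. Every array held RNA of thioglycollate-elicited macrophages, which gather in the peritoneal cavity after an injected irritant. The donors were 6-week-old C57BL/6 females. The TSA + GW3965 + LPS cells and the GW3965 + LPS cells shared both GW3965 and LPS and differed in TSA alone. The remaining groups were TSA + LPS, LPS, TSA and No treatment. Each group had 1 array, so no value below carries a standard deviation, and the labels give no dose, no time, no order of addition and do not say whether cultures or animals were separate. The p-values given therefore measure only the spread between these arrays, which may be technical.

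TSA, trichostatin A, inhibits histone deacetylases, enzymes that take acetyl groups off histones and other proteins. LPS, a lipid and sugar molecule of the bacterial outer membrane, is sensed by a Toll-like receptor and switches on cytokine and chemokine genes through NF-kB, AP-1 and, by way of secreted interferon, STAT factors. GW3965 is a synthetic ligand that activates LXR, the liver X receptor pair of transcription factors, which turn on cholesterol export and fatty acid synthesis and are known in macrophages to hold down a share of the LPS-induced genes, with corepressor complexes that contain the deacetylase Hdac3. The pair of arrays compares cells with and without TSA where the agonist and LPS were both present.

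The deposited intensities had array medians of 0.981 to 0.987 units and were floored at each array's 25th percentile, 0.216 units on the TSA + GW3965 + LPS array and 0.222 on the GW3965 + LPS array. A gene counts as measured in a pair when its brighter array stood at or above that array's median, which held for 4697 genes here, and a gene at least 2-fold apart is called higher or lower. All 9 macrophage markers on the array were measured in the pair, with a summed intensity of 1065 units in TSA + GW3965 + LPS cells and 1263 units in GW3965 + LPS cells. Their 6-array range of sums was 807 to 1361 units. Among neutrophil markers 3 of 9 were measured, with sums of 75.2 and 53.5 units, nearly all from S100a8 at 71.2 and 49.2 units, while Elane and Mpo lay at the floor on both arrays. The B cell marker sums were 27.2 and 21.7 units, and the T cell sums 4.13 and 4.73 units with Cd3e, Cd8a and Zap70 at the floor on both arrays. The part of other cells in the differences below was not tested, and in such bulk RNA fewer cells of a type and less RNA per cell cannot be told apart.

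In TSA + GW3965 + LPS against GW3965 + LPS, 227 genes were at least 2-fold higher, 4.83% of those measured, and 53 were at least 2-fold lower, 1.13%. Of the 227, 88 passed the level filter through the TSA + GW3965 + LPS array alone, and among the 4483 genes at or above the median with GW3965 + LPS, 139 were higher (3.10%) and 53 lower. A difference of at least 4-fold was reached by 29 genes upward and 3 downward. The median log2 difference was 0.02, which became -0.04 after quantile normalization and -0.01 after cyclic loess, and its standard deviation over genes 0.538. In TSA + LPS against LPS 363 genes (7.57%) were higher and 458 (9.55%) lower, with a standard deviation over genes of 0.762, and in TSA against No treatment 330 (6.98%) were higher and 222 (4.69%) lower, with 0.647. These counts have no test, because each side is 1 array. The threshold cuts through a dense part of the scale: Akap13, just inside, was 2.0002-fold higher and Asb3, just outside, 1.99-fold higher, while H2-Q6 was 2.02-fold lower and Sbf1 1.998-fold lower.

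**Figure D1:**
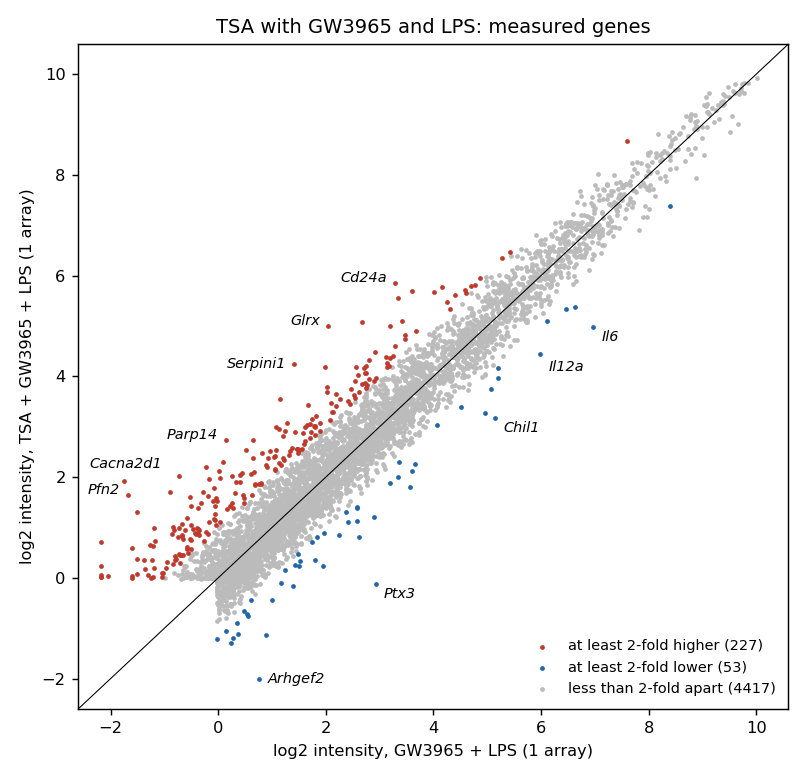
Log2 intensity of the 4697 measured genes on the TSA + GW3965 + LPS array (vertical axis) against the GW3965 + LPS array (horizontal axis), 1 point per gene, with the diagonal marking equal values. The 227 genes at least 2-fold higher with TSA are red and the 53 at least 2-fold lower are blue; the points below the diagonal include Il6, Il12a, Chil1 and Ptx3, and those above it Serpini1, Glrx and Cd24a.

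A test across arrays came from limma, an additive model with LPS, GW3965 and TSA terms fitted to the 4806 genes at or above the array median on at least 2 arrays. Its TSA term is the mean log2 difference over the 3 TSA pairs, this pair included, and "rose" and "fell" below mean a Benjamini-Hochberg adjusted p under 0.05 for it. Counts such as 3 of 3 pairs go by sign alone and include pairs in which the gene was not measured. Il12a, Tnf, Cxcl10, Cxcl11, Socs1 and Mmp13, for example, were not measured in TSA against No treatment. By that term 520 genes rose (10.8%) and 367 fell (7.64%). Genes named below for their difference in the pair were picked on values that this term also uses, so its p-values for them are not independent of the choice. A gene can also meet the level filter through the TSA arrays alone or the others alone, which favours genes that differ. A limma fit to the 4 arrays without GW3965, which shares no array with the pair, called 327 genes risen (6.8%) and 318 fallen (6.62%). Of all 327 risen genes, 321 lay above 0 in TSA + GW3965 + LPS against GW3965 + LPS and 155 were at least 2-fold higher, with a median of 0.95. Of all 318 fallen genes, 278 lay below 0 but 23 were at least 2-fold lower, with a median of -0.41. Among all measured genes 51.7% lay above 0 and 48.3% below. The genes that TSA raised without the agonist were thus mostly higher with it as well, and those it lowered mostly lower. At 2-fold, 47.4% of the risen genes were higher and 7.23% of the fallen genes lower, beside 3.12% and 0.894% of all 8841 genes.

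In the other pairs, 209 of the 227 genes higher in the pair were measured in TSA + LPS against LPS, where 195 had the same sign, 132 were at least 2-fold higher, beside 7.57% of all measured there, and 2 at least 2-fold lower. In TSA against No treatment 205 were measured, 190 had the same sign and 119 were at least 2-fold higher, beside 6.98% of all. For the 53 lower genes, 50 were measured in TSA + LPS against LPS and 38 of them were at least 2-fold lower, beside 9.55% of all. Only 36 of the 53 were measured in TSA against No treatment, and 10 were at least 2-fold lower there, beside 4.69% of all. Across the 4400 genes measured in all 3 pairs, which share no array, the differences with GW3965 + LPS correlated with those in LPS at a Pearson coefficient of 0.610 and a Spearman coefficient of 0.523, and with those of TSA alone at 0.617 (Pearson) and 0.585 (Spearman). The same sign was shared by 66.7% of these 4400 genes in LPS and by 70.9% with TSA alone. These are descriptions across genes of the same arrays, and genes are not independent replicates.

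Of 19 secreted cytokines measured, 5 were at least 2-fold lower, beside 1.13% of all measured genes, and 0 higher, with a median log2 difference of -0.38, and over the 3 pairs 7 of 19 tested fell, beside 7.64% of all tested genes, and 1 rose, Il15, which was named after its values were seen. Il6, the cytokine that drives the acute-phase response, read 31.5 units with TSA + GW3965 + LPS and 126 with GW3965 + LPS. The same gene read 52.9 units with TSA + LPS and 180 with LPS, and 0.447 with TSA and 0.413 with No treatment. Both LPS-treated pairs were thus lower with TSA, while the cells without LPS held little signal. Il6 fell by 1.22 on the log2 scale over the 3 pairs (SE 0.304, limma adjusted p = 0.0116, lower in 2 of 3 pairs), but without the GW3965 arrays the adjusted p was 0.0737.

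Il12a, which encodes a subunit of the T cell-polarizing cytokine IL-12, read 21.8 units with TSA + GW3965 + LPS and 63.3 with GW3965 + LPS, and 20.2 with TSA + LPS against 71.6 with LPS. It fell by 1.23 (SE 0.257, limma adjusted p = 0.00386, lower in 3 of 3 pairs). Csf2, which encodes the growth factor GM-CSF, read 1.18 units with TSA + GW3965 + LPS and 3.85 with GW3965 + LPS, and did not pass over the 3 pairs (limma adjusted p = 0.053). Hbegf, an epidermal growth factor receptor ligand, read 1.8 and 4.75 units in the same order. Its fall of 0.98 (SE 0.301, limma adjusted p = 0.033, lower in 2 of 3 pairs) did not pass without the GW3965 arrays (0.107) or without the LPS and TSA + LPS arrays (0.0942). Edn1, the vessel-constricting peptide endothelin, was the remaining cytokine lower by 2-fold, at 4.81 and 12.6 units, and was named after its values were seen.

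The classical proinflammatory cytokines lay closer to 0 in the pair. Tnf read 33.6 units with TSA + GW3965 + LPS and 52.5 with GW3965 + LPS, a log2 difference of -0.64, and 26.1 with TSA + LPS against 77.3 with LPS. It fell by 1.24 over the 3 pairs (SE 0.228, limma adjusted p = 0.00157, lower in 3 of 3), although with the floor set at the array median the adjusted p was 0.0751. Without LPS it was not measured, at the floor of 0.228 units with TSA and 0.648 with No treatment. Il1a read 125 units with TSA + GW3965 + LPS and 167 with GW3965 + LPS, and 71.6 with TSA + LPS against 195 with LPS. Il1a fell by 0.89 (SE 0.220, limma adjusted p = 0.0109, lower in 3 of 3), and did not pass without the LPS and TSA + LPS arrays (0.0559). Il1b, at 576 and 748 units in the pair, did not pass (limma adjusted p = 0.147).

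The promoters of Il6 and Ptx3 are shown because these are LPS-induced genes among the 12 lowest of the pair. Each window is the RefSeq sequence (GRCm38.p6) of 250 bases before and 50 after the annotated start, written along the gene's strand. For Il6 (chr5:30012864-30013163, plus strand) the capitals mark a match to an NF-kB consensus with its 2 central positions free, searched on both strands, which begins 44 bases before the start. For Ptx3 (chr3:66219637-66219936, plus strand) they mark the 8 CG pairs, against 3 CG pairs in the Il6 window.
Il6: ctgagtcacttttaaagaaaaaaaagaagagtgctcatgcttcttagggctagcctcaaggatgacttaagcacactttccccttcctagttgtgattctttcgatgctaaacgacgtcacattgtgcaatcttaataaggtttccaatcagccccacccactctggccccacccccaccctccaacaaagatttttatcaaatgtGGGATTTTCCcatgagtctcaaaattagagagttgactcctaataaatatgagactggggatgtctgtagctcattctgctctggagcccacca
Ptx3: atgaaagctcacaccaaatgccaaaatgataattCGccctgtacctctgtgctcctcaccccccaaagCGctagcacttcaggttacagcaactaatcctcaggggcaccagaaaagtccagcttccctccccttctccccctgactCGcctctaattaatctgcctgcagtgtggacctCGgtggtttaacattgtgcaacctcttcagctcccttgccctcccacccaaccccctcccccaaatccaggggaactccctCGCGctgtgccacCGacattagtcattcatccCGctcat
The motif was in 1.33% of the 3834 windows of measured genes, in 2.38% of the 42 windows of genes at least 2-fold lower, which is that of Il6 alone, and in 0 of the 177 windows of genes at least 2-fold higher. A pair of GAAA runs with 2 free positions between them, as in an interferon response element, also searched on both strands, was in 3.60%, 7.14% and 2.26% of them. A match describes the letters in this window and is not evidence of a bound factor. Looser forms of an NF-kB site were not searched, so a window without a match, such as that of Ptx3, may still hold one.

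Ptx3, a soluble pattern-recognition pentraxin that LPS induces, was the lowest of all measured genes above the floor on both arrays. It read 0.915 units with TSA + GW3965 + LPS and 7.61 with GW3965 + LPS, 8.32-fold lower. It read 0.681 with TSA + LPS and 9.14 with LPS, and was at the floor with TSA and with No treatment. Its fall over the 3 pairs was 2.27 (SE 0.458, limma adjusted p = 0.00302), carried by the 2 LPS-treated pairs. Arhgef2, a guanine nucleotide exchange factor that binds microtubules, had the same shape. It read 0.25 units with TSA + GW3965 + LPS and 1.7 with GW3965 + LPS, 0.314 with TSA + LPS and 2.56 with LPS, and lay at the floor without LPS. Chil1, a chitinase-like lectin, read 9.05 units with TSA + GW3965 + LPS and 35.4 with GW3965 + LPS, and 5.68 with TSA + LPS and 41.2 with LPS, and fell by 1.82 (SE 0.302, limma adjusted p = 0.000705, lower in 3 of 3 pairs).

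Vnn3, of the pantetheinase family, read 3.5 units with TSA + GW3965 + LPS and 11.9 with GW3965 + LPS. Tfec, a transcription factor of the macrophage lineage, read 1.76 and 6.15 units, and Tma16 read 9.64 and 31.2 units in the same order. Both Tfec and Tma16 were also lower with TSA in the LPS cells, by 1.56 and 1.91 on the log2 scale, and their falls (limma adjusted p = 0.0309 and 0.0164) did not pass without the GW3965 arrays (0.184 and 0.0557). Ubxn8 differed from these in being lower with TSA in all 3 pairs, by 1.70, 2.14 and 1.28 on the log2 scale. Its level was 2.3 units with TSA + GW3965 + LPS and 7.47 with GW3965 + LPS.

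**Figure D2:**
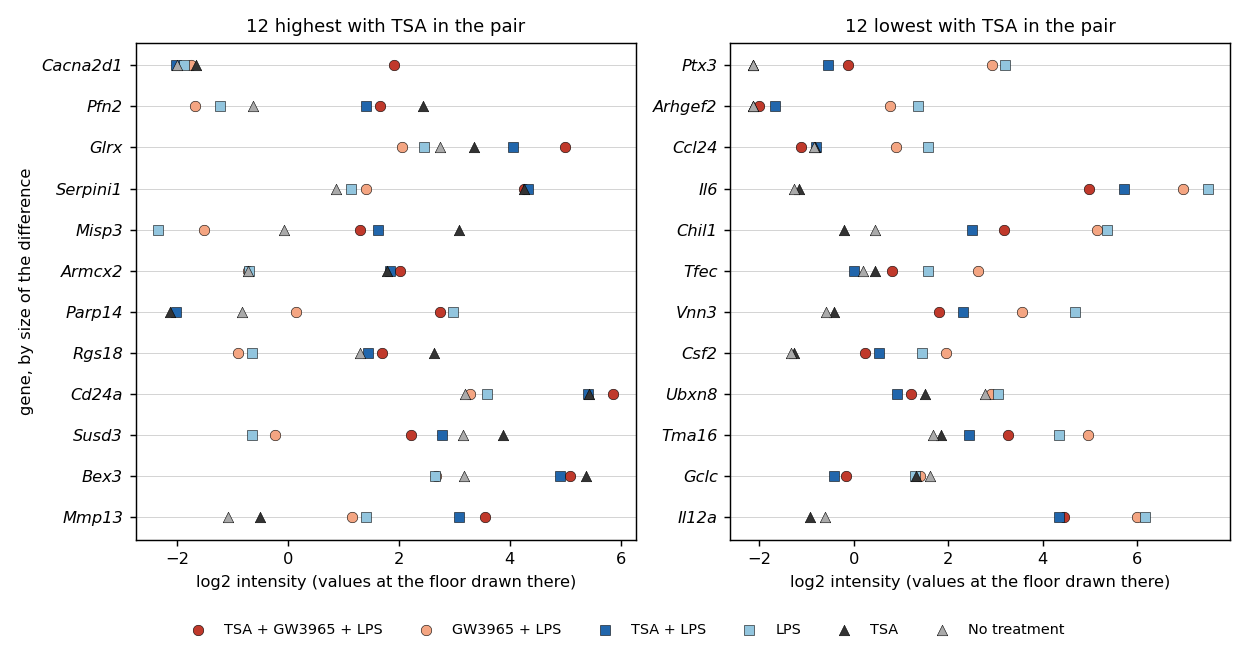
Log2 intensity on each of the 6 arrays for the 12 genes with the highest (left) and the 12 with the lowest (right) log2 difference between TSA + GW3965 + LPS and GW3965 + LPS among genes above the floor on both arrays, 1 point per array; values at the floor are drawn there. Serpini1, Armcx2 and Bex3 are high on all 3 TSA arrays, Cacna2d1 on the TSA + GW3965 + LPS array alone, and Ptx3, Arhgef2 and Il6 are high on the LPS and GW3965 + LPS arrays.

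Of 21 chemokines measured, 1 was at least 2-fold higher and 1 lower in the pair, beside 4.83% and 1.13% of all measured genes. Their median was -0.16, and 2 of 22 tested rose and 3 fell over the 3 pairs, beside 10.8% and 7.64% of all tested. Ccl24, an attractant of eosinophils, read 0.457 units with TSA + GW3965 + LPS and 1.86 with GW3965 + LPS, and fell by 1.45 (SE 0.352, limma adjusted p = 0.0099, lower in 2 of 3 pairs). Cxcl11, an interferon-induced attractant of T cells, went the opposite way. It read 10.7 units with TSA + GW3965 + LPS and 3.2 with GW3965 + LPS, and 30.5 with TSA + LPS and 9.49 with LPS, and rose by 1.18 (SE 0.284, limma adjusted p = 0.00931, higher in 3 of 3 pairs). Without LPS it was not measured, at 0.246 units with TSA and at the floor of 0.228 with No treatment.

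Cxcl10, which binds the same receptor as Cxcl11, read 18.9 units with TSA + GW3965 + LPS and 24.7 with GW3965 + LPS, but 52.4 with TSA + LPS and 137 with LPS. Its fall of 0.70 (SE 0.235, limma adjusted p = 0.0465, lower in 3 of 3 pairs) did not pass without the GW3965 arrays (0.0595), without the LPS and TSA + LPS arrays (0.303), with the floor at the median (0.129) or without the intensity trend (0.059). Ccl2, a monocyte attractant, read 347 units with TSA + GW3965 + LPS and 281 with GW3965 + LPS, and Ccl5 read 901 and 856 units. Neither passed (limma adjusted p = 0.492 and 0.831). Ccl22 read 3.91 and 6.83 units, and its fall (limma adjusted p = 0.037) did not pass without the GW3965 arrays (0.185), without the LPS and TSA + LPS arrays (0.0781) or with the floor at the median (0.0638).

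Interferon-stimulated genes had a median difference of -0.01 over 40 measured, with 2 at least 2-fold higher and 0 lower, a share higher that is near the 4.83% of all measured genes. In TSA + LPS against LPS, 11 of 41 were at least 2-fold lower, beside 9.55% of all genes there, and 0 higher, with a median of -0.79. The difference between these lists of values was not tested. Cmpk2, a mitochondrial nucleotide kinase, read 6.31 units with TSA + GW3965 + LPS and 3.01 with GW3965 + LPS, and 8.33 with TSA + LPS against 11.8 with LPS. Rsad2, the antiviral enzyme viperin, read 32.1 and 17.6 units, and 30.5 and 34.6 units, in the same order. Neither passed over the 3 pairs (limma adjusted p = 0.509 and 0.985). Nor did Irf1, an early interferon regulatory factor, at 141 and 143 units in the pair (limma adjusted p = 0.346).

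Parp14, an interferon-induced ADP-ribosyltransferase, was the member that stood apart. It read 6.7 units with TSA + GW3965 + LPS and 1.1 with GW3965 + LPS, 6.08-fold higher. With TSA + LPS it was at the floor of 0.245 units, against 7.83 with LPS, and with TSA it was at the floor of 0.228 units, against 0.564 with No treatment. Of the 3 TSA arrays the one with GW3965 was the one above the floor. A limma fit with a TSA by GW3965 term, which compares the TSA difference of this pair with the mean of the other 2, gave 5.76 on the log2 scale for Parp14 (SE 0.558, limma adjusted p = 5.33e-21, higher in 1 of 3 pairs). This gene was read by a single probe, and its floored values make the size approximate. Its p-value takes the spread from other genes of like intensity and not from Parp14 itself. The 2 other TSA differences of Parp14 were far apart, -5.00 with LPS and -1.31 without, where the gene was not measured. Its SE in the additive fit was 0.787.

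That term called 1 gene higher in the pair with GW3965, Parp14, which is 0.0208% of 4806, and 0 genes lower. At an unadjusted p under 0.05, limma had 115 higher and 25 lower among the 4806 genes tested. Together these are a smaller share of the genes than the limit of 0.05 itself, so the counts are not read as further genes. The next smallest adjusted p was 0.448, the median SE was 0.566 on the log2 scale, and the fit had 1 residual degree of freedom, so each gene took the spread of genes of like intensity. A departure of this pair from the mean of the other 2 was therefore not detectable for other genes unless large, which does not show that the differences were alike. TSA against No treatment, 1 of those 2 pairs, had no LPS, so the term cannot tell GW3965 from LPS. Glrx, with 1.84 (SE 0.576, limma adjusted p = 0.866), and Il6, with -1.17 (0.999), are examples that did not pass. Cacna2d1, an auxiliary subunit of calcium channels, had the largest log2 difference of the measured genes, 3.67, at 3.77 units with TSA + GW3965 + LPS and 0.297 with GW3965 + LPS, against 0.245 to 0.316 units on the other 4 arrays. It exceeded the array median on 1 array and so was not in the fit.

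**Figure D3:**
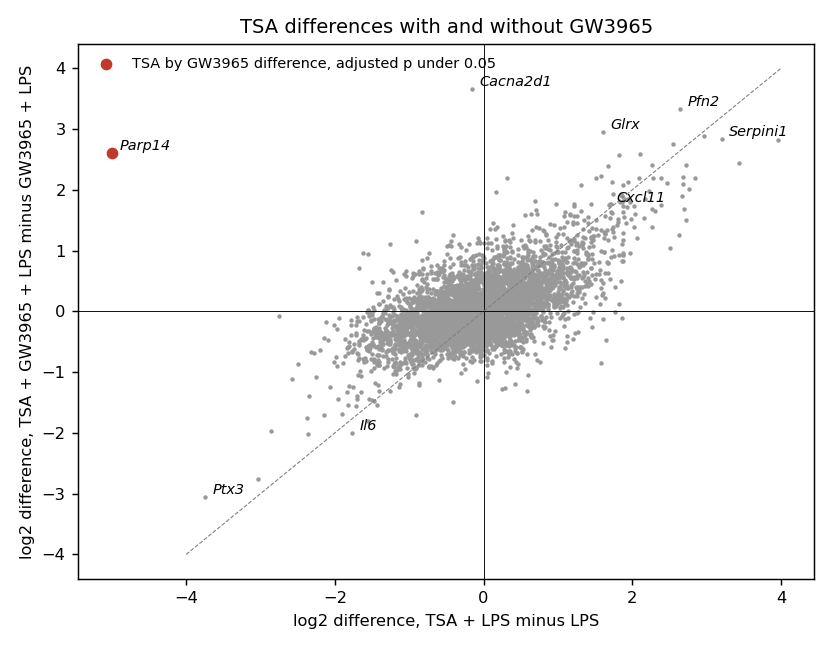
Log2 difference with TSA in GW3965 + LPS cells (vertical axis) against the log2 difference with TSA in LPS cells (horizontal axis), 1 point per gene measured in the pair with GW3965; the dashed line marks equal differences. Parp14, in red, has 2.60 on the vertical and -5.00 on the horizontal axis and is the gene with an adjusted p under 0.05 for the TSA by GW3965 term.

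The LPS response as a whole was described with genes chosen in LPS against No treatment, which share no array with the pair. There, 669 genes stood 2-fold or more above No treatment (14% of 4790 measured) and 290 as far below it (6.05%). Over all 669 LPS-induced genes, 26 were at least 2-fold lower and 25 at least 2-fold higher in TSA + GW3965 + LPS than in GW3965 + LPS, with a median of -0.08. The share lower, 3.89%, stands beside 0.894% of all 8841 genes taken the same way. Over the 262 genes induced at least 4-fold, 22 were lower (8.40%) and 11 higher, with a median of -0.16. Most LPS-induced genes were thus within 2-fold of their level without TSA.

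For TSA + LPS against LPS, genes were chosen in GW3965 + LPS against No treatment so that no array was shared. The GW3965 + LPS level was 2-fold or more above No treatment for 10.8% of 4775 genes. Of these induced genes 511 were measured, 101 were at least 2-fold lower with TSA, 19.8% beside 9.55% of all genes measured in that pair, and the median was -0.39. The difference between this share and that of the pair with GW3965 was not tested, and the gene sets were chosen on different arrays.

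LPS-repressed genes tended to the opposite side. Over all 290, 44 were at least 2-fold higher in TSA + GW3965 + LPS than in GW3965 + LPS (15.2%) and 4 lower, with a median of 0.33, beside 3.12% higher of all 8841 genes. Of these 290, 228 were measured, and 42 of the 228 only through the TSA + GW3965 + LPS array, a filter that favours higher genes. Among the 186 whose GW3965 + LPS value was itself at or above the median, 18 were at least 2-fold higher (9.68%) and the median was 0.23, beside 3.10% of all 4483 such genes.

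**Figure D4:**
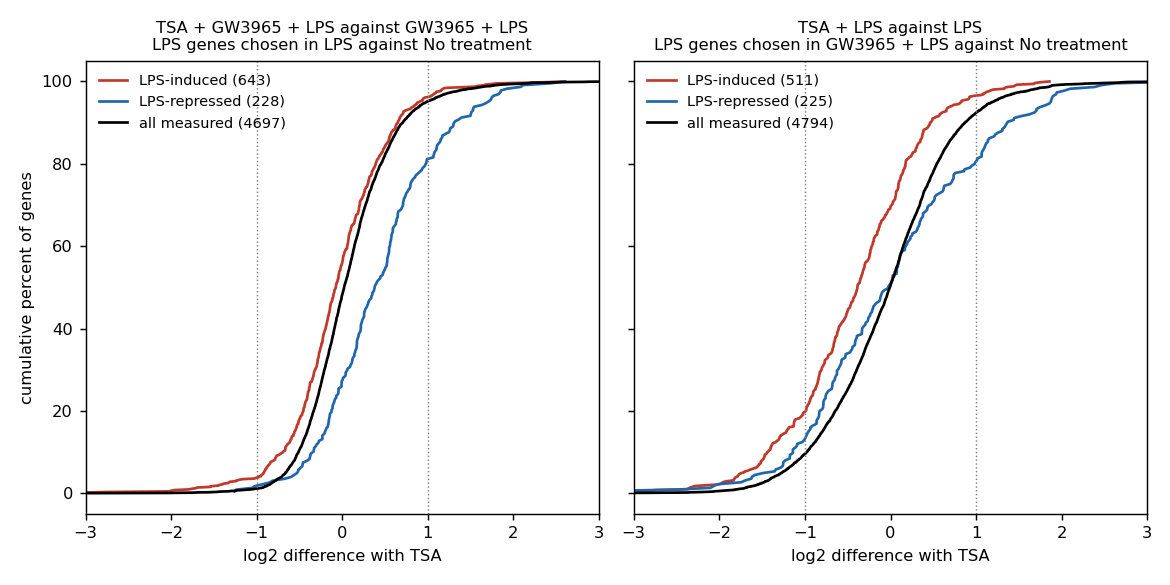
Cumulative percent of genes (vertical axis) by log2 difference with TSA (horizontal axis) for LPS-induced, LPS-repressed and all measured genes, in TSA + GW3965 + LPS against GW3965 + LPS (left) and in TSA + LPS against LPS (right), with each set chosen on arrays not used in its panel. On the left the 643 measured LPS-induced genes have a median of -0.07 and the 228 measured LPS-repressed genes 0.38; on the right the 511 measured LPS-induced genes have a median of -0.39 and the 225 measured LPS-repressed genes -0.02.

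Several strongly LPS-induced genes had nearly equal values on both arrays. Stxbp3, a vesicle fusion regulator, read 23.5 units with TSA + GW3965 + LPS and 23.5 with GW3965 + LPS, Aoah, the enzyme that removes acyl chains from LPS, 14.8 and 14.7, and P2ry13, a nucleotide receptor, 5.53 and 5.46. Tor3a read 5.82 and 5.83 units in that pair but 3.12 with TSA + LPS and 9.05 with LPS. Nt5c3 read 207 and 210 units, and Lhx4 3.25 and 3.24. None of these 6 passed for the TSA term, with limma adjusted p-values between 0.177 for Tor3a and 0.835 for Lhx4.

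Early NF-kB and AP-1 response genes included 1 of 29 measured at least 2-fold lower and 0 higher, beside 1.13% and 4.83% of all measured genes. Their median was -0.27, and 6 of 29 fell over the 3 pairs, beside 7.64% of all tested genes. Socs1, a feedback inhibitor of cytokine signalling, read 2.67 units with TSA + GW3965 + LPS and 6 with GW3965 + LPS, and its fall (0.79, SE 0.233, limma adjusted p = 0.0269, lower in 3 of 3 pairs) did not pass without the GW3965 arrays (0.226) or with the floor at the median (0.0984). Nfkbia, the inhibitor that NF-kB itself induces, read 156 and 171 units and did not pass (limma adjusted p = 0.502). Zfp36, which speeds the decay of cytokine messages, read 11.8 units with TSA + GW3965 + LPS and 18.1 with GW3965 + LPS, and 8.7 with TSA + LPS against 29.2 with LPS. Its fall (limma adjusted p = 0.0232, lower in 3 of 3 pairs) did not pass without the LPS and TSA + LPS arrays (0.188).

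In Toll-like receptor signalling 1 of 22 was at least 2-fold lower and 0 higher, beside 1.13% and 4.83% of all measured genes. The median was -0.27, and 5 of 23 fell, beside 7.64% of all tested genes. Cd14, the coreceptor that hands LPS to its receptor and also a macrophage marker, read 167 units with TSA + GW3965 + LPS and 339 with GW3965 + LPS, and 174 with TSA + LPS against 351 with LPS. Its fall of 0.83 (SE 0.196, limma adjusted p = 0.00883, lower in 3 of 3 pairs) did not pass without the GW3965 arrays (0.0989). Irak1, the kinase downstream of the receptor adaptor, read 3.2 and 6.26 units in the pair and fell by 1.02 (SE 0.211, limma adjusted p = 0.00348, lower in 3 of 3). Among enzymes of eicosanoids, nitric oxide and arginine, 2 of 24 were at least 2-fold higher and 2 lower, beside 4.83% and 1.13% of all. Ptger2, a prostaglandin receptor, read 3.44 units with TSA + GW3965 + LPS and 0.952 with GW3965 + LPS, and Ltc4s, the leukotriene synthase, 3 and 0.967. Both rose in 3 of 3 pairs (limma adjusted p = 0.000836 and 0.000118). Slc7a2, an arginine transporter, read 15.6 and 36.8 units and fell (limma adjusted p = 0.00916, lower in 3 of 3), a call not made without the GW3965 arrays (0.1). Ptgs2 and Nos2, the inducible enzymes of prostaglandin and nitric oxide, read 1.55 and 1.89 units, and 2.33 and 3.15 units, in the pair and did not pass (limma adjusted p = 0.244 and 0.502).

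LXR target genes were mostly a little below 0. Of 18 measured, 15 were below 0, beside 48.3% of all measured genes, with a median of -0.18. At 2-fold 2 were lower and 0 higher, beside 1.13% and 4.83% of all. Of 19 tested, 5 fell over the 3 pairs, beside 7.64% of all tested genes. Abcg1, a cholesterol exporter, read 30.6 units with TSA + GW3965 + LPS and 31.1 with GW3965 + LPS, against 5.66 with TSA + LPS, 10.8 with LPS, 13.2 with TSA and 20 with No treatment. Both arrays with the agonist were above the other 4, with and without TSA. It did not pass for the TSA term (limma adjusted p = 0.109). Scd2, a fatty acid desaturase, read 6.83 units with TSA + GW3965 + LPS and 8.47 with GW3965 + LPS, and 1.24 with TSA + LPS and 1.98 with LPS. Its fall over the 3 pairs (limma adjusted p = 0.0271, lower in 3 of 3) did not pass with the floor at the median (0.0527) or without the TSA and No treatment arrays (0.337). Eepd1, chosen after its values were seen, read 9.41 and 10.4 units with GW3965, and 2.15 and 2.66 units with TSA + LPS and with LPS.

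Fasn, fatty acid synthase, was lower with TSA in all 3 pairs, at 2.19 units with TSA + GW3965 + LPS and 5.95 with GW3965 + LPS, 0.787 with TSA + LPS and 2.57 with LPS, and 1.53 with TSA and 3.39 with No treatment. It fell by 1.43 (SE 0.227, limma adjusted p = 0.000505). Its second probe was below the array median on every array, and read 0.348 and 0.601 units in the pair. In the other pairs that probe was higher with TSA. It read 0.458 with TSA + LPS and 0.339 with LPS, and 0.7 with TSA and 0.572 with No treatment. Nr1h3, which encodes LXR alpha and is itself an LXR target, read 4.9 units with TSA + GW3965 + LPS and 10.3 with GW3965 + LPS, and 3.48 with TSA + LPS and 16.5 with LPS. Its fall was 1.34 (SE 0.260, limma adjusted p = 0.0022, lower in 3 of 3 pairs). Apoe, a lipoprotein component, read 132 and 152 units in the pair, and its fall (limma adjusted p = 0.0467) did not pass under 4 alternatives, with 0.402 without the TSA and No treatment arrays. Pltp, a phospholipid transfer protein, read 37.4 and 50.5 units (limma adjusted p = 0.627). Abca1 read 0.727 and 0.416 units, below the median on both arrays, and Srebf1 lay at the floor on all 6 arrays, so neither could be judged.

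Among lipid-sensing nuclear receptors and their coregulators the median was -0.43 over 14 measured. At least 2-fold lower was 1, Nr1h3, and 3 of 14 fell, beside 1.13% and 7.64% over all genes. Gps2, a corepressor complex subunit, read 0.636 units with TSA + GW3965 + LPS and 1.09 with GW3965 + LPS and fell by 1.10 (SE 0.252, limma adjusted p = 0.00714, lower in 3 of 3 pairs). Sumo3, a small ubiquitin-like modifier, read 1.61 and 2.41 units and fell (limma adjusted p = 0.00992, lower in 3 of 3), a call not made without the TSA and No treatment arrays (0.0781). Hdac3, the deacetylase of that complex, read 1.61 and 1.4 units, and Hdac1 3.07 and 2.59 units, and neither passed (limma adjusted p = 0.887 and 0.585). Of 7 deacetylases measured, 6 were above 0, beside 51.7% of all measured genes, and 0 were 2-fold apart. Sirt1 and Hdac6 rose over the 3 pairs, beside 10.8% of all tested genes. Those 2 calls were not made without the GW3965 arrays (0.092 for Sirt1 and 0.171 for Hdac6) or without the TSA and No treatment arrays (0.0505 and 0.115).

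Serpini1, Pfn2 and Bex3, best known from neurons, were among the 12 highest genes of the pair that were above the floor on both arrays. Serpini1, the serine protease inhibitor neuroserpin, read 19 units with TSA + GW3965 + LPS and 2.66 with GW3965 + LPS, 20.1 with TSA + LPS and 2.19 with LPS, and 19.1 with TSA and 1.83 with No treatment. All 3 TSA arrays stood above all 3 others, and the gene rose by 3.14 (SE 0.214, limma adjusted p = 1.97e-07). Pfn2, a profilin that binds actin monomers, read 3.14 and 0.312 units in the pair, 10.1-fold higher, then 2.65 and 0.424, and 5.43 and 0.641, in the other pairs. It rose by 3.02 (SE 0.242, limma adjusted p = 8.3e-07, higher in 3 of 3 pairs). Its values without TSA were all below the array medians, so Pfn2 passed the level filter through the TSA arrays alone. Bex3, a brain-expressed X-linked gene, read 33.8 units with TSA + GW3965 + LPS and 6.36 with GW3965 + LPS, and rose by 2.29 (SE 0.201, limma adjusted p = 1.51e-06, higher in 3 of 3). Even so the list of 20 neuronal genes had a median of -0.06. It held 4 at least 2-fold higher and 0 lower, beside 4.83% and 1.13% of all measured genes. With the floor at the median 3 were higher. Of 19 tested, 4 rose, beside 10.8% of all tested.

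The promoters of Serpini1 and Pfn2 are shown because both genes were high on every TSA array whatever the other treatment. The windows are built as above from RefSeq (GRCm38.p6), and the capitals mark CG pairs. Serpini1 lies at chr3:75557243-75557542 on the plus strand and its window holds 15 CG pairs. Pfn2 lies at chr3:57847708-57848007 on the minus strand and its window holds 45.
Serpini1: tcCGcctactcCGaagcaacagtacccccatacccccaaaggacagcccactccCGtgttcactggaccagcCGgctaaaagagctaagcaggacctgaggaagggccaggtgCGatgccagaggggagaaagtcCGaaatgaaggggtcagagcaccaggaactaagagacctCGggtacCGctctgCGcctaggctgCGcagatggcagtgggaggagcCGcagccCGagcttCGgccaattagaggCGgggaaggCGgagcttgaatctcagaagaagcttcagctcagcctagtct
Pfn2: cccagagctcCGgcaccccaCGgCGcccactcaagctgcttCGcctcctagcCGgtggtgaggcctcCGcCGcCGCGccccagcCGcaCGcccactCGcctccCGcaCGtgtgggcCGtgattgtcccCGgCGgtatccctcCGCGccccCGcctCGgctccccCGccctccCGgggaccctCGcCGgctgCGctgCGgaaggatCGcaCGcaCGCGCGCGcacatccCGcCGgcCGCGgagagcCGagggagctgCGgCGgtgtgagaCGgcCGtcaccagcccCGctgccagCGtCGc
These 2 genes differ widely in CG pairs. The median was 17 CG pairs over the 177 windows of genes at least 2-fold higher in the pair, 10.5 over the 42 windows of lower genes and 20 over the 3834 windows of all measured genes.

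Of 8 histone genes measured, 3 were at least 2-fold higher in the pair and 0 lower, beside 4.83% and 1.13% of all measured genes. The median was 0.69, and 4 of 8 rose over the 3 pairs, beside 10.8% of all tested genes. Of the 3 higher in the pair, H1f2 and H3c1 were below the array median with GW3965 + LPS. Both passed the level filter through the TSA + GW3965 + LPS array alone. With the floor at the median 1 was higher and the median was 0.46. H1f2, a linker histone, read 1.55 units with TSA + GW3965 + LPS and 0.43 with GW3965 + LPS, and rose by 1.74 (SE 0.240, limma adjusted p = 0.000147, higher in 3 of 3 pairs). H2az1 and H2az2, the H2A.Z variants, read 205 and 106 units, and 20.5 and 9.11 units, in the pair. Both rose in 3 of 3 pairs (limma adjusted p = 0.00197 and 0.000155). H3c1 read 1.38 and 0.614 units, and its rise (limma adjusted p = 0.0111, higher in 3 of 3) did not pass with the floor at the median (0.354).

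Genes known to respond to deacetylase inhibitors had 4 of 18 measured at least 2-fold higher and 0 lower, beside 4.83% and 1.13% of all. The median was 0.02, and 4 of 19 rose and 3 fell, beside 10.8% and 7.64% of all tested genes. Hspb1, a small heat shock protein, read 3.26 units with TSA + GW3965 + LPS and 0.824 with GW3965 + LPS, and rose by 1.88 (SE 0.240, limma adjusted p = 7.75e-05, higher in 3 of 3 pairs). Fas, the death receptor, read 29.7 and 12.9 units and rose by 1.46 (SE 0.227, limma adjusted p = 0.00045, higher in 3 of 3). Cdkn1a, the cell cycle inhibitor p21 that deacetylase inhibitors raise in many cell lines, read 4.28 units with TSA + GW3965 + LPS and 7.73 with GW3965 + LPS, and fell by 1.04 (SE 0.216, limma adjusted p = 0.00359, lower in 3 of 3).

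Other genes high with TSA in the pair came from several classes. Glrx, glutaredoxin, read 31.9 units with TSA + GW3965 + LPS and 4.13 with GW3965 + LPS, 16.7 with TSA + LPS and 5.5 with LPS, and 10.2 with TSA and 6.67 with No treatment, and rose by 1.72 (SE 0.309, limma adjusted p = 0.00127). Cd24a, a surface glycoprotein, read 58.1 and 9.75 units in the pair, and Armcx2, of the armadillo repeat family, 4.07 and 0.603. Both rose in 3 of 3 pairs (limma adjusted p = 3.88e-06 and 1.51e-06). Every Armcx2 value without TSA was below the array median. Rgs18, a regulator of G protein signalling in blood cells, read 3.24 and 0.537 units, Misp3 2.47 and 0.351, and Susd3 4.63 and 0.85, and all 3 rose. Misp3, like Armcx2, was below the median on every array without TSA. Without LPS, Rgs18 and Susd3 read 2.46 and 8.91 units with No treatment, so their GW3965 + LPS values lay below the untreated ones.

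A further 5 genes were at least 4-fold higher from a GW3965 + LPS value at the floor. Stard10, a lipid transfer protein, reached 1.64 units with TSA + GW3965 + LPS, at least 7.39-fold higher, and was at 1.54 units with TSA + LPS and 1.59 with TSA, against the floor on all 3 arrays without TSA. Prtn3, the neutrophil granule protease proteinase 3, reached 1.18 units, at least 5.33-fold higher, 1.31 with TSA + LPS and 4.24 with TSA, again against the floor without TSA. Elane and Mpo, from the same granules, were at the floor on both arrays of the pair. Nnat, 1700088E04Rik and ccdc198 reached 1.04, 1.02 and 1.01 units, at least 4.70-, 4.58- and 4.56-fold higher, and were not in the fit. No gene was at least 4-fold lower by reaching the floor with TSA + GW3965 + LPS.

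Extracellular proteases and their inhibitors had 7 of 25 measured at least 2-fold higher and 1 lower, beside 4.83% and 1.13% of all measured genes. With the floor at the median 5 were higher and 1 lower. Prtn3, named above, passed the level filter through the TSA + GW3965 + LPS array alone, which favours higher genes. Their median was 0.09, and -0.05 after cyclic loess. Of 25 tested, 5 rose and 6 fell, beside 10.8% and 7.64% of all tested genes. Mmp13, a collagenase, read 11.7 units with TSA + GW3965 + LPS and 2.21 with GW3965 + LPS, and 8.43 with TSA + LPS and 2.64 with LPS, and rose by 1.55 (SE 0.285, limma adjusted p = 0.00156, higher in 3 of 3 pairs). Serpinb1a, an inhibitor of neutrophil proteases, read 20 and 6.97 units in the pair and rose by 1.78 (SE 0.207, limma adjusted p = 3.09e-05, higher in 3 of 3).

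Redox, glutathione and heme genes lay on both sides, with 3 of 36 measured at least 2-fold higher and 3 lower, beside 4.83% and 1.13% of all. Of 36 tested, 7 rose and 10 fell over the 3 pairs, beside 10.8% and 7.64% of all tested genes. The 3 at least 2-fold lower in the pair were Gclc and Gclm, the subunits of the enzyme that starts glutathione synthesis, and Hmox1, heme oxygenase. Gclc read 0.893 units with TSA + GW3965 + LPS and 2.63 with GW3965 + LPS, Gclm 4.37 and 12.1, and Hmox1 41.8 and 98.8. Hmox1 fell by 1.24 (SE 0.214, limma adjusted p = 0.000914, lower in 3 of 3 pairs), and Gclc fell by 1.19 (limma adjusted p = 0.00739, lower in 3 of 3). The fall of Gclm (limma adjusted p = 0.0444, lower in 2 of 3) did not pass under 4 alternatives, with 0.24 without the GW3965 arrays. On the higher side Gsta4, a glutathione transferase, read 3.05 and 0.695 units and rose by 2.07 (SE 0.237, limma adjusted p = 2.68e-05, higher in 3 of 3), and Mt2, a metallothionein, read 8.04 and 3.48 units and rose (limma adjusted p = 0.00068, higher in 3 of 3).

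Of 51 actin and adhesion genes measured, 33 were below 0, beside 48.3% of all measured genes, with a median of -0.17. At 2-fold 3 were lower and 3 higher, beside 1.13% and 4.83% of all, the share higher being near that of all. Of 52 tested, 18 fell and 3 rose over the 3 pairs, beside 7.64% and 10.8% of all tested genes. Parvg, an integrin-linked adaptor, read 0.438 units with TSA + GW3965 + LPS and 1.21 with GW3965 + LPS, and fell by 1.67 (SE 0.246, limma adjusted p = 0.000271, lower in 3 of 3 pairs). Capg, an actin filament capping protein named after its values were seen, read 40.6 and 88 units in the pair, 19 with TSA + LPS and 113 with LPS, and 28.8 with TSA and 91.7 with No treatment, and fell by 1.79 (SE 0.239, limma adjusted p = 0.000118). Actb read 781 and 819 units in the pair and did not pass (limma adjusted p = 0.729).

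Of 46 mitochondrial respiration genes measured, 9 were below 0 and 1 was at least 2-fold higher, beside 48.3% and 4.83% of all measured genes. The median was 0.21 (0.08 after cyclic loess scaling). Of 46 tested, 13 rose and 1 fell over the 3 pairs, beside 10.8% and 7.64% of all tested genes. Uqcrb, a subunit of the cytochrome bc complex, read 407 units with TSA + GW3965 + LPS and 195 with GW3965 + LPS, and rose by 0.93 (SE 0.182, limma adjusted p = 0.00248, higher in 3 of 3 pairs). Ribosomal protein genes had a median of 0.13 over 52 measured, which was -0.01 after cyclic loess. Of these 0 were apart by 2-fold and 5 rose, beside 10.8% of all tested genes. Glycolysis and hypoxia genes had a median of 0.31 over 21, with 0 apart by 2-fold. Of 21 tested, 4 rose and 2 fell, beside 10.8% and 7.64% of all tested genes. Bnip3, a mitophagy receptor induced by low oxygen, read 7.77 and 4.19 units and rose by 1.10 (SE 0.210, limma adjusted p = 0.00209, higher in 3 of 3).

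Apoptosis genes had 2 of 26 measured members higher by 2-fold and 0 lower, beside 4.83% and 1.13% of all measured genes, with a median of 0.23. Of 26 tested, 7 rose and 2 fell, beside 10.8% and 7.64% of all tested genes. Casp2, an initiator caspase, read 16.8 units with TSA + GW3965 + LPS and 6.7 with GW3965 + LPS, and rose by 1.18 (SE 0.212, limma adjusted p = 0.00131, higher in 3 of 3 pairs). Cell cycle genes had 2 of 26 higher and 0 lower, and 3 of 30 rose and 3 fell, near the shares of all genes for higher and risen. Cdk1, the mitotic kinase, read 5.92 and 2.8 units, and Rb1, the retinoblastoma protein, 4.21 and 1.35, and both rose in 3 of 3 pairs (limma adjusted p = 0.000836 for both).

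Antigen processing and presentation had 0 of 23 measured genes apart by 2-fold, with a median of -0.18. Of 23 tested, 5 fell, beside 7.64% of all tested genes. Psmb10, an immunoproteasome subunit, read 143 units with TSA + GW3965 + LPS and 239 with GW3965 + LPS, and Cd74, the invariant chain, 24.7 and 38.5. Both fell in 3 of 3 pairs (limma adjusted p = 0.0164 and 0.0173), and neither passed without the GW3965 arrays (0.108 and 0.0905), nor Psmb10 without the TSA and No treatment arrays (0.12). Proteasome genes, which share Psmb10 with that list, had a median of -0.17 over 36 with 0 apart by 2-fold. Of 36 tested, 5 fell, beside the same 7.64%. Chaperones and unfolded protein response genes had 1 of 39 higher, Hspb1, and 0 lower, beside 4.83% and 1.13% of all, with a median of -0.16. Of 40 tested, 4 rose and 9 fell, beside 10.8% and 7.64% of all tested genes. Ddit3, the stress factor CHOP, read 13.2 and 25.1 units, and Ppp1r15a, which restores translation after stress, 6.5 and 12.1. Both fell in 3 of 3 pairs (limma adjusted p = 0.0132 and 0.0076), Ddit3 not without the GW3965 arrays (0.117).

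**Figure D5:**
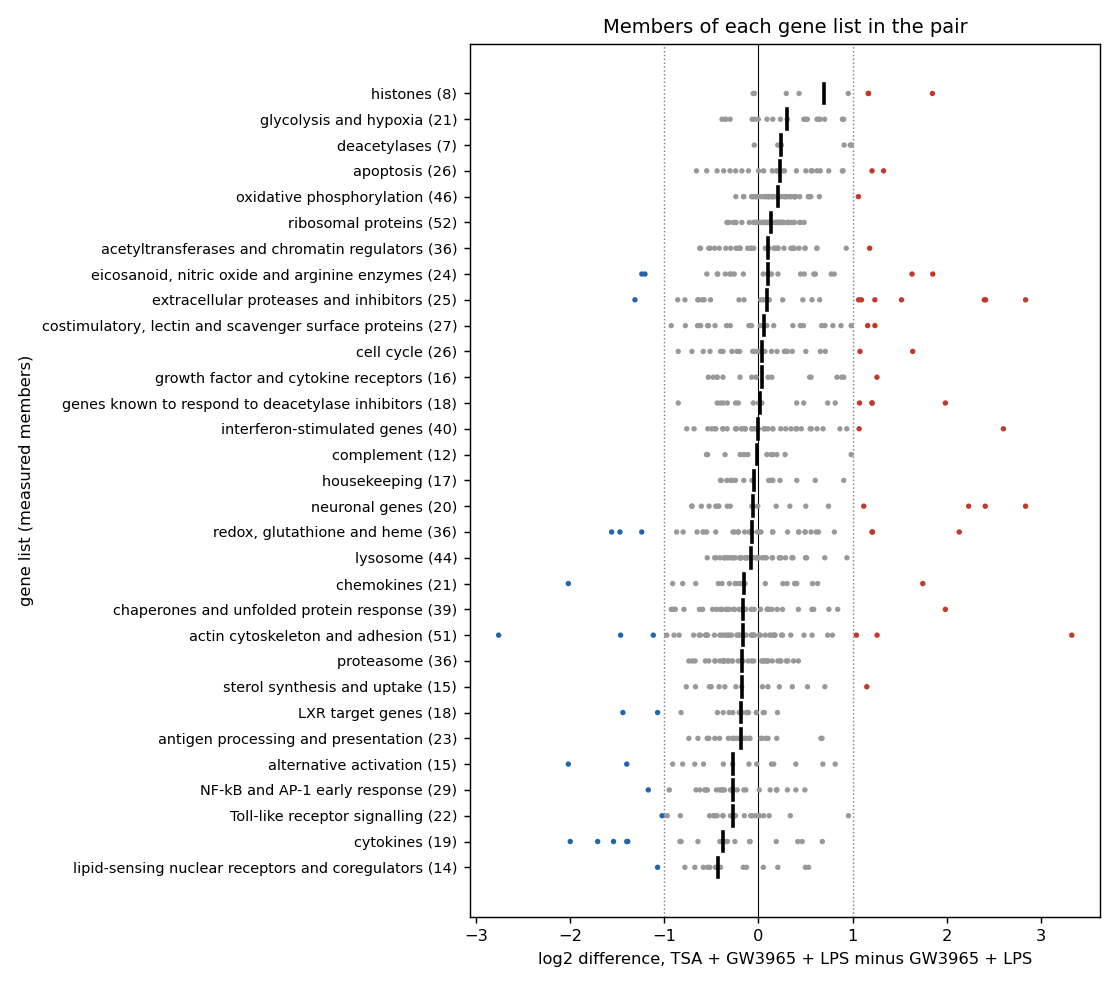
Log2 difference between TSA + GW3965 + LPS and GW3965 + LPS (horizontal axis) for the measured members of 31 gene lists (vertical axis, number measured in brackets), 1 point per gene, with the median as a black bar and dotted lines at 2-fold. Of the lists drawn, histones have the highest median, 0.69, and lipid-sensing nuclear receptors the lowest, -0.43 (0.46 and -0.28 with the floor at the median); members at least 2-fold higher are red and lower blue.

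The remaining lists had few members 2-fold apart, beside the 4.83% higher and 1.13% lower of all measured genes. Sterol synthesis and uptake had 1 of 15 measured higher, Ch25h at 1.38 and 0.62 units, and a median of -0.18. Acetyltransferases and chromatin regulators had 1 of 36 higher, Hmgn3, a nucleosome-binding protein at 14.4 and 6.36 units. Of 38 tested, 2 rose and 4 fell, beside 10.8% and 7.64% of all tested genes. Costimulatory, lectin and scavenger surface proteins had 2 of 27 higher, Cd80 at 4.86 and 2.18 units and Trem1 at 1.01 and 0.429. Alternative activation genes had 2 of 15 lower, Ccl24 and Hbegf, named above. Growth factor and cytokine receptors had 1 of 16 higher, Kdr at 2.26 and 0.945 units. Ch25h, Trem1 and Kdr were below the array median with GW3965 + LPS. They passed the level filter through the TSA + GW3965 + LPS array alone. In the lysosome, complement and housekeeping lists 0 of 44, 0 of 12 and 0 of 17 measured genes were apart by 2-fold, with medians of -0.07, -0.01 and -0.05. Gapdh read 606 units with TSA + GW3965 + LPS and 545 with GW3965 + LPS.

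The list medians depended on how the arrays were scaled. After cyclic loess the median was -0.30 for chemokines, -0.25 for actin and adhesion genes, -0.28 for proteasome genes and -0.10 for sterol genes. After quantile normalization it was 0.19 for glycolysis and hypoxia genes, -0.03 for genes that respond to deacetylase inhibitors and -0.08 for interferon-stimulated genes. Both scalings moved apoptosis genes, to 0.14 after cyclic loess and 0.12 after quantile normalization, and chaperones, to -0.25 after each. They gave -0.18 and -0.17 for lysosome genes, -0.15 and -0.16 for neuronal genes, -0.11 and -0.13 for housekeeping genes and -0.04 and -0.09 for complement genes, cyclic loess before quantile normalization. With the floor at the median, nuclear receptors and coregulators had -0.28 and sterol genes -0.09.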

How the data were processed

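Messenger RNA was measured on 6 single-colour biotin arrays, 1 per group, from 0.5 ug of total RNA primed with oligo-dT, per the labels' protocols. The deposited values are intensity on a linear scale. They were taken as already scaled between arrays, because the array medians were 0.981 to 0.987 units. Neither the scaling nor the background step is given in the sources used here. Per array, 19 to 28 values at or below 0 were raised to the floor. Of 10076 probes 8983 carried 1 gene symbol, 1 several and 1092 none. Gene IDs of 8975 were found in a RefSeq gene table, with 0 symbols changed. For 138 genes with several probes the probe with the highest mean was used, and of 45 with several measured probes 39 had probe differences within 2-fold. Each array was floored at its 25th percentile, 0.198 to 0.245 units, and log2-transformed, and "at least" marks folds against a floored value.

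Differences in a pair have no test. limma 3.58.1 in R 4.3.3 (lmFit, eBayes with trend, two-sided, Benjamini-Hochberg over 4806 genes) gave an additive fit with 2 residual and 15.1 prior degrees of freedom, a fit with a TSA by GW3965 term and a fit to the 4 arrays without GW3965, each of the last 2 with 1 residual degree of freedom and an infinite prior. A floored value enters as the floor. The fits were tested on simulated data. Members and the 31 gene lists (1319 symbols, 1020 on the array, 1 through a synonym) were chosen with earlier results of these data known, so their counts describe and support nothing independently. Named genes are the 12 highest and 12 lowest of the pair above the floor, up to 8 at least 4-fold apart from the floor in each direction, up to 8 passing the TSA by GW3965 term in each direction, the 8 farthest-dropping and the 8 least-moved genes among those that LPS raised at least 4-fold, the 4 farthest members of each list, and 25 fixed names, of which Il12b, Nr1h2 and Mylip are not analysed here. Figures used matplotlib 3.10.9 in Python 3.11.15. The number of arrays limits the precision.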

Additional observations from a re-analysis of the deposited data

Results flagged for a closer look

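Parp14 stood apart because its TSA difference with GW3965 + LPS was opposite in sign to those of the other pairs and the difference itself passed limma. That difference was 5.76 on the log2 scale (SE 0.558, limma adjusted p = 5.33e-21), from log2 differences of 2.60 with GW3965 + LPS, -5.00 with LPS and -1.31 without either. Over the 8 settings in which it was tested it ranged from 4.10 to 6.97, with adjusted p-values from 9.18e-31 to 4.43e-05. The gene has 1 probe and 1 array per group, and no cause was tested. In the main setting its own spread did not enter the p-value. Parp14 was not measured in TSA against No treatment, where its TSA value was at the floor.

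Probes with no gene symbol (1092) or with several (1), which no gene comparison above uses, also held differences. Of 1093 such probes 543 were measured in the pair, 20 were at least 2-fold higher with TSA + GW3965 + LPS than with GW3965 + LPS (3.68%) and 8 at least 2-fold lower (1.47%).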

How the results depend on the processing

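No named gene that passed for a limma term reversed its direction under the alternatives run, which covered 2 other scalings, 2 other floors, stricter and looser level filters, averaged probes, other fold limits, a constant prior variance, the arrays on which LPS genes were chosen and leaving out a TSA pair. In the pair with GW3965, 227 genes higher and 53 lower became 189 and 58 after quantile normalization and 221 and 61 after cyclic loess, but 108 and 28 with the brighter array over its 75th percentile, 660 and 337 at 1.5-fold and 71 and 10 at 3-fold. The 24 measured LPS-induced genes that were lower stood beside 25 higher of 643 measured, and became 15, 126 and 8 under those same 3 settings. When chosen in TSA + LPS against TSA, 13 were lower and 21 higher of 427 measured. The 43 measured LPS-repressed genes that were higher became 9, 151 and 8 under the same 3 settings, and 23 with the floor at the median. The 520 genes risen by the TSA term became 327 without the GW3965 + LPS and TSA + GW3965 + LPS pair. The TSA by GW3965 term called 2 genes higher with the floor at the median (Coil and Parp14), 2 with it at the 10th percentile (Parp14 and Zmynd10, with Zmynd10 at the floor on both arrays with GW3965), 2 higher (Cacna2d1 and Parp14) and 1 lower (1700008O03Rik) with no level filter, and 0 when 4 arrays had to exceed the median, where Parp14 was not tested. Fewer genes enter under a stricter filter by construction; otherwise the cause was not tested. Of 148 named genes with a TSA term, not all of which had a call, 30 lost theirs without the pair with GW3965 and 2 gained one. Without the LPS pair 11 lost and 10 gained a call, and without the TSA and No treatment pair 13 lost and 8 gained one. Genes near the floor have folds that depend on it: 24 of 154 named pair differences moved with the floor at the median.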
